A study of Mus musculus with 14 samples.

Results

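The 10 genes described here encode AP-1 transcription factor subunits and related products of the immediate early response. They are Fos, Fosb, Fosl1, Fosl2, Jun, Junb, Jund, Atf3, Egr1 and Ier3, taken by symbol from the rows present in both deposited tables, and all 10 were found among the 23682 genes the tables share. They were measured by bulk RNA sequencing of whole mouse kidney in 14 libraries, 1 per mouse as the labels number them. Every mouse drank doxycycline. The 4 controls carried the actin-rtTA+ transgene alone, were on it for 30 days, and have no injection recorded. The 5 vehicle mice and the 5 inhibitor mice were i-TERTci (actin-rtTA+;TetOp-TERTci+), heterozygous for each transgene, in which doxycycline turns on TERTci, a catalytically inactive telomerase reverse transcriptase, throughout the body and not in the kidney alone. After proteinuria had developed they were injected daily into the peritoneum with DMSO (the DMSO group, 29 to 38 days on doxycycline) or with GSK2830371, an inhibitor of the phosphatase WIP1 (the GSK2830371 group, 28 to 49 days). The labels give the animals as adult and give neither age nor sex.

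AP-1 is a dimer of basic leucine zipper proteins. FOS proteins cannot pair with each other and need a JUN partner, while JUN proteins can also pair among themselves. Most of these genes are immediate early genes: their transcription is switched on within minutes by growth factors, cytokines, stress kinases or tissue handling, without new protein synthesis, and their short-lived mRNAs fade again. In the kidney, FOS, JUN, ATF3 and EGR1 are known as early responders to ischaemic, toxic and obstructive injury of the tubules.

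The 150 bases just before the start of transcription are shown for the 4 members whose promoter held the core of the cyclic AMP response element (CRE core), the letters TGACG on either strand, through which CREB and ATF family factors act on many immediate early genes. The sequences are from RefSeq on GRCm38.p6, each read 5′ to 3′ on the gene's own strand, with the CRE core in capitals. They lie at chr12:85473740-85473889 on the plus strand (Fos), chr7:19310046-19310195 on the minus strand (Fosb), chr8:84978749-84978898 on the minus strand (Junb) and chr1:191183334-191183483 on the minus strand (Atf3).
Fos: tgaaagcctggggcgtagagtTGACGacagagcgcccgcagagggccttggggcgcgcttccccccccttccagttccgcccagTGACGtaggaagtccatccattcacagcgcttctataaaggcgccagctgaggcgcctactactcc
Fosb: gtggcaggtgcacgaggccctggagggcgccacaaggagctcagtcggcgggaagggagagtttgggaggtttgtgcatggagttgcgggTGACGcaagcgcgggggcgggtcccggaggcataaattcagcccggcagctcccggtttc
Junb: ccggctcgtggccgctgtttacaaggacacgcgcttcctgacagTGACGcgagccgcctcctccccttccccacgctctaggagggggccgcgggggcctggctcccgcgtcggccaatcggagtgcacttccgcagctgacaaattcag
Atf3: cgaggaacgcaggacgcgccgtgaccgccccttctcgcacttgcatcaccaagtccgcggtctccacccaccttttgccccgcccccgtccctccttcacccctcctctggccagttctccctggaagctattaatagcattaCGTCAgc
Positions count back from -1, the last base before the start. Fos held the core in 2 places, at -129 to -125 and at -66 to -62, and a TATA box (TATAAA) at -33 to -28. Fosb held the core at -60 to -56 and Junb at -106 to -102. In Atf3 it lay at -7 to -3, on the opposite strand. The RefSeq start used for Atf3 lies inside the annotated gene, and 7 of the 150 bases shown are annotated exon sequence. For Fosb 6 of the 150 are. Promoter windows of 250 bases before the start were found for 8 of the 10 members, and 4 of these 8 held TGACG, against 17.8% of 32851 mouse promoters of the same length. The RefSeq start used for Jund lies upstream of the annotated gene and matched no annotated transcript start, and the Fosl2 window lies past the annotated gene start, with its last 150 bases inside annotated exon sequence. The full CRE (TGACGTCA, 1.55% of promoters, and itself a match to TGACG), the AP-1 site (TGANTCA, 6.75%) and the CArG box (1.47%) were in none of the 8. An EGR site (GCGNGGGCG, 4.7% of promoters) was in Fosb and Fosl2. All were searched on both strands of these 250 bases and not farther upstream, and a match describes the letters only.

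The genes lie apart in the genome, in the GENCODE M21 annotation of GRCm38. Fos (ENSMUSG00000021250) is at chr12:85473890-85477273, Fosb (ENSMUSG00000003545) at chr7:19302696-19310051, Fosl1 (ENSMUSG00000024912) at chr19:5447547-5455946 and Fosl2 (ENSMUSG00000029135) at chr5:32135801-32157842. Jun (ENSMUSG00000052684) is at chr4:95049034-95052222, Junb (ENSMUSG00000052837) at chr8:84974484-84978718 and Jund (ENSMUSG00000071076) at chr8:70698949-70700616. Atf3 (ENSMUSG00000026628) is at chr1:191170296-191218039, Ier3 (ENSMUSG00000003541) at chr17:35821684-35822923, and the last member is Egr1 (ENSMUSG00000038418). The exons of 4 members overlap a gene on the other strand. Ccdc85b covers 57.2% of the exon bases of Fosl1, the antisense gene Gm11175 covers 52.6% of Jund, Prdx2 covers 7.52% of Junb, and Junos covers 7.28% of Jun. The strand setting of the read counting is not given in the sources used here, so reads of these pairs may have been shared or lost.

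Libraries held 48.5 to 64.6 M reads in genes in the controls, 47.2 to 48.9 M in the DMSO group and 48.4 to 49.4 M in the GSK2830371 group. Kidney identity was plain in every library: Slc34a1 (proximal tubule), Umod (loop of Henle) and Podxl (podocytes) were at no less than 28556, 114282 and 11080 normalised read counts. Tert, a check of the transgene, was at 117 to 183 in the controls, 574 to 2732 in the DMSO group and 231 to 2546 in the GSK2830371 group. The control libraries differed from the i-TERTci libraries in 3 further ways, the last of them shared with some i-TERTci libraries. Reads of mitochondrial genes made up 14.4% to 24.2% of the controls, 4.95% to 9.52% of the DMSO group and 5.07% to 8.35% of the GSK2830371 group. The level of mt-Nd6, which is encoded opposite most other mitochondrial genes, was at 173 to 658 normalised read counts in the controls and at 6181 to 17914 in the i-TERTci libraries. All 4 controls expressed Xist and not the Y-linked Ddx3y, against 2 of 5 DMSO mice and 3 of 5 GSK2830371 mice. Genotype and these library differences cannot be told apart except where sex was modelled.

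Values below are normalised read counts, which are reads divided by a library size factor, and changes are differences of log2(normalised read count + 1) with adjusted p from limma over 18810 tested genes. Values for a group are listed in the order of its replicate numbers. In the comparison of DMSO-treated i-TERTci mice with controls, 8 of the 10 members rose, none fell, and Jund and Ier3 did not pass the test. Across all genes 48.3% passed in either direction, 25.2% rose and 23.1% fell, so the comparison as a whole was broad. The median change was 1.77 over the members and 0.03 over all genes. In 7 members every DMSO library lay above every control library, which held for 20% of all genes. In GSK2830371-treated mice against the same controls, 7 of 10 members rose and none fell, while 24.3% of all genes rose, 22.1% fell and 46.3% passed in either direction. The median change was 1.58 against 0.01 over all genes, and in 6 members no GSK2830371 library reached down to a control, against 20.8% of all genes. The comparisons share the control libraries, so they are not independent of each other. All 10 members passed the filter on low counts, but Fosl1 reached its level in 0 of 4 control libraries and in all 10 i-TERTci libraries, so its place among the tested genes rests on the i-TERTci groups.

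**Figure D1:**
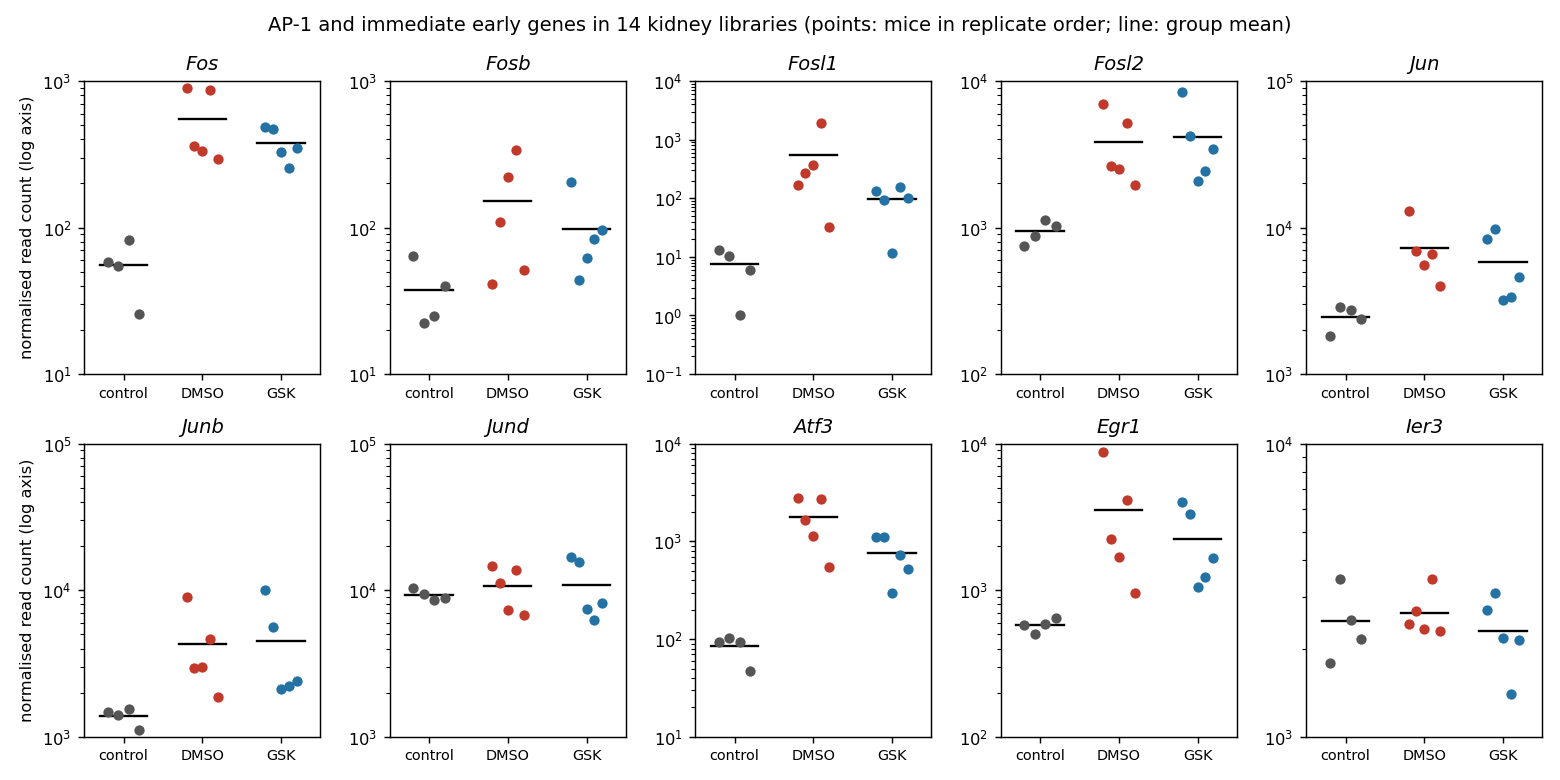
Normalised read count of each of the 10 genes in every library, on a log axis, with 1 point per mouse in replicate order and a line at the group mean for 4 controls, 5 DMSO mice and 5 GSK2830371 mice. Fos, Fosl2, Jun, Junb, Atf3 and Egr1 show every i-TERTci point above every control point, while the 3 groups overlap for Jund and Ier3.

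Within the FOS family, Fos encodes the transient, strongly activating FOS subunit. Its level was 58.3, 54.7, 82.2 and 25.9 in the controls. In the DMSO group it was 903, 358, 332, 867 and 292, and in the GSK2830371 group 485, 471, 329, 256 and 348. The lowest i-TERTci library was thus above the highest control, with DMSO replicates 1 and 4 standing above the other DMSO libraries. Mean levels were 55.3 ± 23.1 (SD, n = 4), 550 ± 307 (n = 5) and 378 ± 97.7 (n = 5). Fos rose by 3.22 on the log2 scale in the DMSO group (SE 0.39, limma adjusted p = 1.41e-05) and by 2.82 in the GSK2830371 group (SE 0.39, limma adjusted p = 4.89e-05). It passed the test in all 28 refits under other settings of each comparison. Of each 28, 14 left out 1 library. Where that library was outside the comparison, the estimate stayed as it was and only the shared spread changed.

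Fosb encodes a FOS protein that is best known from neurons, where a truncated form persists. By group mean it was the least abundant family member per kilobase in both i-TERTci groups, overlapping Fosl1 in each. Controls had 63.8, 22.3, 25.1 and 40.0, DMSO mice 41.1, 109, 221, 338 and 51.3, and GSK2830371 mice 205, 43.6, 62.1, 84.0 and 96.8. The groups overlapped: control replicate 1 was above 2 DMSO libraries and 2 GSK2830371 libraries. In the DMSO group Fosb rose by 1.66 (SE 0.59, limma adjusted p = 0.0297), but the call was lost in 7 of 28 refits, among them the fit with sex as a covariate (1.02, adjusted p = 0.206) and those without control replicate 2 or 3 or without DMSO replicate 3 or 4 (adjusted p = 0.0727 to 0.0874). In the GSK2830371 group the change was 1.28 (SE 0.59, limma adjusted p = 0.0876), and it passed in 4 of 28 refits, among them DESeq2 (adjusted p = 0.0395).

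Fosl1 encodes FRA-1, a FOS protein without the strong activation domain of FOS, whose expression is itself raised by AP-1 activity in many cells. The gene was close to absent in controls, at 13.2, 10.2, 1.0 and 5.89 normalised read counts. DMSO mice had 168, 268, 362, 1952 and 32.3, and GSK2830371 mice had 132, 93.9, 11.8, 158 and 99.3. DMSO replicate 4 alone was more than all other libraries together, and GSK2830371 replicate 3 lay inside the control range. The change was 5.22 (SE 1.01, limma adjusted p = 0.000821) in the DMSO group, 4.48 without its replicate 4, and 3.48 (SE 1.01, limma adjusted p = 0.0118) in the GSK2830371 group, where voom did not call it (adjusted p = 0.0769). Ccdc85b, which shares exon bases with Fosl1 on the other strand, was at 984 to 1176 in controls, 664 to 1040 in DMSO mice and 593 to 800 in GSK2830371 mice. In GSK2830371 replicate 3, Ccdc85b stood at 783 while Fosl1 stood at 11.8.

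Fosl2 encodes FRA-2 and was the main FOS family mRNA of control kidney. Its level was 744, 879, 1122 and 1029 in controls, 6945, 2621, 2503, 5180 and 1942 in DMSO mice, and 8425, 4236, 2071, 2419 and 3462 in GSK2830371 mice. No i-TERTci library reached down to the control range, and replicate 1 was the highest of each i-TERTci group. Fosl2 rose by 1.87 in the DMSO group (SE 0.41, limma adjusted p = 0.0018) and by 1.95 in the GSK2830371 group (SE 0.41, limma adjusted p = 0.00143), in all 28 refits of each.

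Within the JUN family, Jun encodes c-JUN, the target of the JNK kinases. It was at 1816, 2891, 2739 and 2368 in controls, 12954, 6921, 5525, 6647 and 4024 in DMSO mice, and 8421, 9744, 3182, 3367 and 4587 in GSK2830371 mice. All i-TERTci libraries were above all controls, by a narrow margin for GSK2830371 replicates 3 and 4. The rise was 1.47 in the DMSO group (SE 0.36, limma adjusted p = 0.0037) and 1.12 in the GSK2830371 group (SE 0.36, limma adjusted p = 0.0185). For GSK2830371 mice Jun missed the threshold once control replicate 1 was left out (0.99, adjusted p = 0.0609), with sex as a covariate (0.93, adjusted p = 0.057) and with Xist-positive libraries only (0.96, adjusted p = 0.0654).

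Junb encodes a JUN protein that can replace c-JUN in AP-1 dimers and in some settings restrains it. Controls had 1488, 1412, 1544 and 1111, DMSO mice 9019, 2956, 3007, 4615 and 1876, and GSK2830371 mice 10118, 5597, 2119, 2222 and 2416. Every i-TERTci library lay above every control, yet the i-TERTci mice spread over several-fold, with replicate 1 highest in each i-TERTci group. Junb rose by 1.42 in the DMSO group (SE 0.48, limma adjusted p = 0.0241) and by 1.40 in the GSK2830371 group (SE 0.48, limma adjusted p = 0.0268). Against the controls, Junb in DMSO mice no longer passed with sex as a covariate (0.88, adjusted p = 0.171). Leaving out control replicate 4 gave it an adjusted p of 0.0622, and leaving out DMSO replicate 1 gave 0.0548. The GSK2830371 call was lost without control replicate 2 or 4 or GSK2830371 replicate 1 or 2 (adjusted p = 0.0538 to 0.0679) and with the sex covariate (adjusted p = 0.0795).

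Jund encodes the JUN protein that is abundant in resting cells. It was at 10359, 9383, 8649 and 8912 in controls, 14631, 11154, 7296, 13686 and 6786 in DMSO mice, and 16922, 15702, 7445, 6271 and 8230 in GSK2830371 mice. The controls lay within the range of both i-TERTci groups, in which some mice were above and others below every control. The change was 0.13 in the DMSO group (95% interval -0.51 to 0.78, limma adjusted p = 0.738) and 0.11 in the GSK2830371 group (95% interval -0.53 to 0.75, limma adjusted p = 0.788). Its antisense neighbour Gm11175, with a mean of 66.5 in controls against 364 in DMSO mice and 327 in GSK2830371 mice, rose by 2.36 (limma adjusted p = 2.25e-05) and by 2.28 (limma adjusted p = 3.41e-05). Whether reads of Jund were counted there was not tested. Nor was it tested whether strand was handled alike in preparing or counting the control and i-TERTci libraries, between which mt-Nd6 also differed. This bears on the control comparisons of Gm11175 and Jund, of Fosl1 and Ccdc85b and, over fewer exon bases, of Jun and Junb.

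Atf3 encodes a stress-induced factor of the ATF family that pairs with JUN proteins and, as a homodimer, represses. Its level was 93.5, 103, 94.3 and 47.1 in controls, 2806, 1660, 1127, 2724 and 549 in DMSO mice, and 1109, 1116, 299.7, 725 and 517 in GSK2830371 mice. Every i-TERTci library lay well above every control. The mean was 84.4 ± 25.3 (SD, n = 4) in controls, 1773 ± 987 (n = 5) in DMSO mice and 753 ± 361 (n = 5) in GSK2830371 mice. Atf3 rose by 4.21 in the DMSO group (SE 0.48, limma adjusted p = 1.27e-05) and by 3.04 in the GSK2830371 group (SE 0.48, limma adjusted p = 0.00018), in all 28 refits of each. After Fosl1 it had the largest change among the members in both comparisons.

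Egr1 encodes a zinc finger factor outside the AP-1 family that is induced alongside Fos. It was at 583, 499, 589 and 651 in controls, 8776, 2237, 1684, 4118 and 959 in DMSO mice, and 3990, 3324, 1053, 1239 and 1668 in GSK2830371 mice. All i-TERTci libraries were above all controls, and DMSO replicate 1 was far above the rest. Egr1 rose by 2.20 in the DMSO group (SE 0.54, limma adjusted p = 0.00458) and by 1.76 in the GSK2830371 group (SE 0.54, limma adjusted p = 0.0169), and kept its call in all 28 refits of each, with adjusted p up to 0.045 and 0.0499.

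Ier3 encodes a small protein that modulates survival and MAP kinase signalling. Controls had 1791, 3464, 2500 and 2164, DMSO mice 2426, 2691, 2333, 3467 and 2292, and GSK2830371 mice 2714, 3085, 2172, 1405 and 2146. The ranges of the 3 groups overlapped. The change was 0.12 (95% interval -0.36 to 0.60, limma adjusted p = 0.693) in the DMSO group and -0.11 (95% interval -0.59 to 0.37, limma adjusted p = 0.709) in the GSK2830371 group, and it passed in none of the 28 refits of either.

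**Figure D2:**
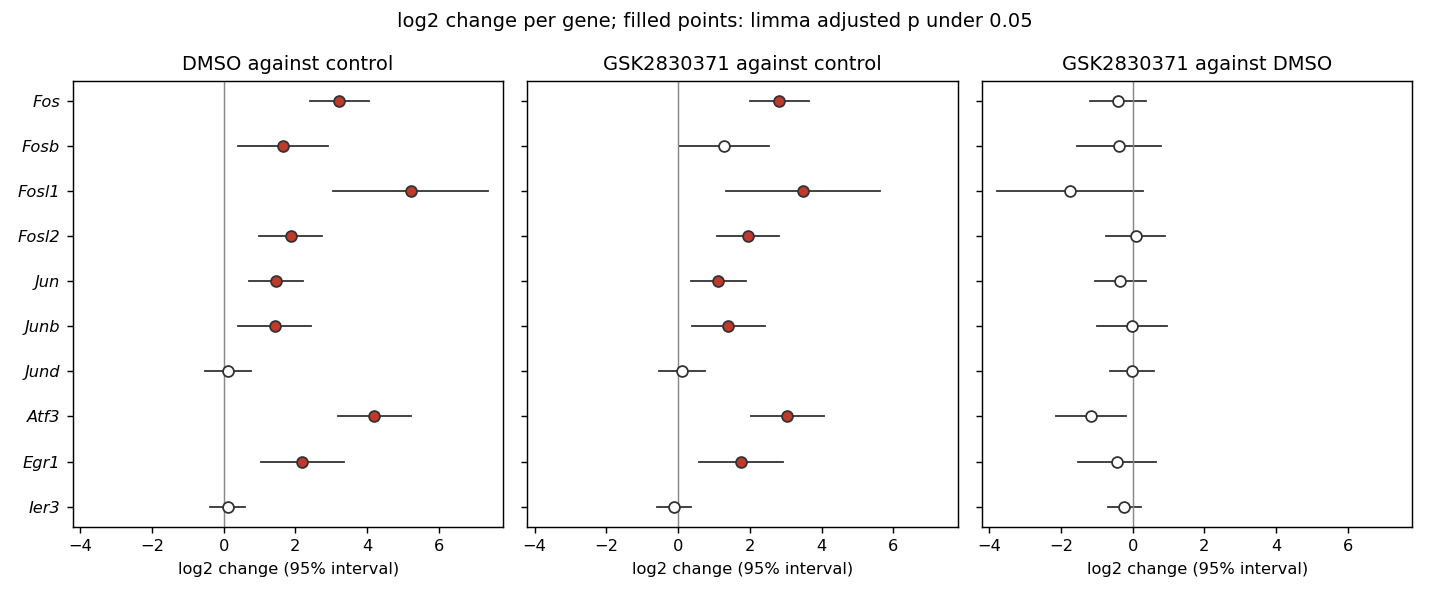
Difference in log2(normalised read count + 1) of each gene with its 95% interval in the 3 comparisons, filled where the limma adjusted p is under 0.05. Filled points stand for 8 genes against controls in the DMSO group and 7 in the GSK2830371 group, and no gene is filled in GSK2830371 against DMSO.

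Restricting the libraries by sex or by time on doxycycline also left fewer mice, so their parts cannot be told apart. With the Xist-positive libraries alone, 4 controls against 2 DMSO mice, 5 of 10 members rose in place of 8, while genes changed over all genes went from 9079 to 6059. There Fosb (1.09, adjusted p = 0.116), Jun (1.13, adjusted p = 0.069) and Junb (0.77, adjusted p = 0.126) did not pass. Keeping libraries at 31 days or fewer removed only replicate 4 from the DMSO group, and Fosb (1.27, adjusted p = 0.0695) and Junb (1.35, adjusted p = 0.0515) did not pass. Leaving out that library alone gave Junb the same change with an adjusted p of 0.0497. In the GSK2830371 comparison Fosb passed at 31 days or fewer (1.995, adjusted p = 0.0301), where only replicates 1 and 5 of the GSK2830371 group remained. Fos, Fosl1, Fosl2, Atf3 and Egr1 passed in all 28 refits of the DMSO comparison.

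GSK2830371 against DMSO in i-TERTci mice asks whether the inhibitor changed these genes. None of the 10 members passed, with limma adjusted p of 0.994 or more for each, and 0% of all 18810 genes passed. At an unadjusted p under 0.05 there were 800 genes (4.25%), edgeR called 0 and DESeq2 called 1. The estimate was below 0 for 9 of 10 members, against 51.1% of all genes, with a median of -0.36 against -0.01 over all genes. These 9 include Junb and Jund at -0.02 each. Most members were correlated within the treatment groups, so their signs are not independent of each other. Atf3 had the smallest p of the members: the change was -1.16 (SE 0.45, 95% interval -2.13 to -0.20, limma unadjusted p = 0.0214, adjusted p = 0.994), and GSK2830371 and DMSO mice overlapped between 549 and 1116. Among all genes 1.97% were lower at an unadjusted p under 0.05, and 0.239% and 0.245% had every GSK2830371 library above or below every DMSO library, which no member had. For Fosl1 the change was -1.74 (95% interval -3.77 to 0.29), or -1.01 without DMSO replicate 4 and -1.10 without GSK2830371 replicate 3.

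For the other members the intervals of the inhibitor comparison leave room for changes in either direction. Fos changed by -0.40 (95% interval -1.18 to 0.38), Jun by -0.34 (-1.06 to 0.38) and Egr1 by -0.44 (-1.53 to 0.66). Fosl2 changed by 0.09 (-0.73 to 0.91), Junb by -0.02 (-0.99 to 0.94) and Jund by -0.02 (-0.63 to 0.58). Fosb changed by -0.38 (-1.57 to 0.80) and Ier3 by -0.23 (-0.68 to 0.23). The signs of Fos, Fosb, Fosl2, Junb, Jund and Egr1 turned under at least 1 other setting or left-out library, so no direction is given for them. The treated mice were also on doxycycline for longer, 49 days in 3 of 5 against at most 38 days in the DMSO group.

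Abundance per kilobase of exon put Jund first and Ier3 next in every group, with shifts lower down. In controls Jund was highest at a mean of 5591 normalised reads per kilobase, followed by Ier3 (2193), Jun (769), Junb (604), Egr1 (129), Fosl2 (97.5), Atf3 (39.2), Fos (23.5), Fosb (6.05) and Fosl1 (3.72). Neighbours whose control libraries overlapped were Jun and Junb, Egr1 and Fosl2, Atf3 and Fos, and Fosb and Fosl1. In DMSO mice Jund (6421) stayed first and clear of Ier3 (2336), but Ier3 now overlapped Jun (2262), and Jun overlapped Junb (1866). Atf3 moved up to the fifth place (823), overlapping Junb and Egr1 (793). Fosl2 (397), Fosl1 (274) and Fos (234) overlapped in turn. Fosb (24.4) was last and clear of Fos, but its range of 6.59 to 54.2 overlapped the 15.9 to 960 of Fosl1. In GSK2830371 mice Jund (6543) was followed by Ier3 (2038), Junb (1953) and Jun (1838), which overlapped, then by Egr1 (503), Fosl2 (426), Atf3 (350) and Fos (161), and by Fosl1 (48.6) and Fosb (15.7), which overlapped.

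As shares of the summed per-kilobase level of each family, the makeup of the AP-1 pool also differed. Jund made up 77.2% to 83.6% of the JUN family in controls, 52.4% to 66.7% in DMSO mice and 59.0% to 69.9% in GSK2830371 mice, so that no i-TERTci library reached a control. Jun made up 7.67% to 12.8%, 17.0% to 24.3% and 15.4% to 20.5%, and Junb 7.35% to 9.99%, 12.7% to 23.4% and 14.2% to 25.6%. Fosl2 made up 65.0% to 84.0% of the FOS family in controls, 27.9% to 60.3% in DMSO mice and 55.6% to 74.1% in GSK2830371 mice, the last overlapping the controls. Fos took 8.70% to 22.5%, 19.2% to 35.6% and 17.6% to 37.9%. Fosl1 took at most 5.48% in controls, 4.56% to 50.1% in DMSO mice and 1.57% to 17.2% in GSK2830371 mice, with its highest share in DMSO replicate 4. These shares are of mRNA, and the members of a family share each library's scaling. Whether strand was handled alike in the control and i-TERTci libraries was not tested. This bears on the shares against controls, since the exons of Jund, Fosl1, Junb and Jun overlap genes on the other strand. Because whole kidney was measured, fewer cells of a type and less RNA per cell cannot be told apart.

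**Figure D3:**
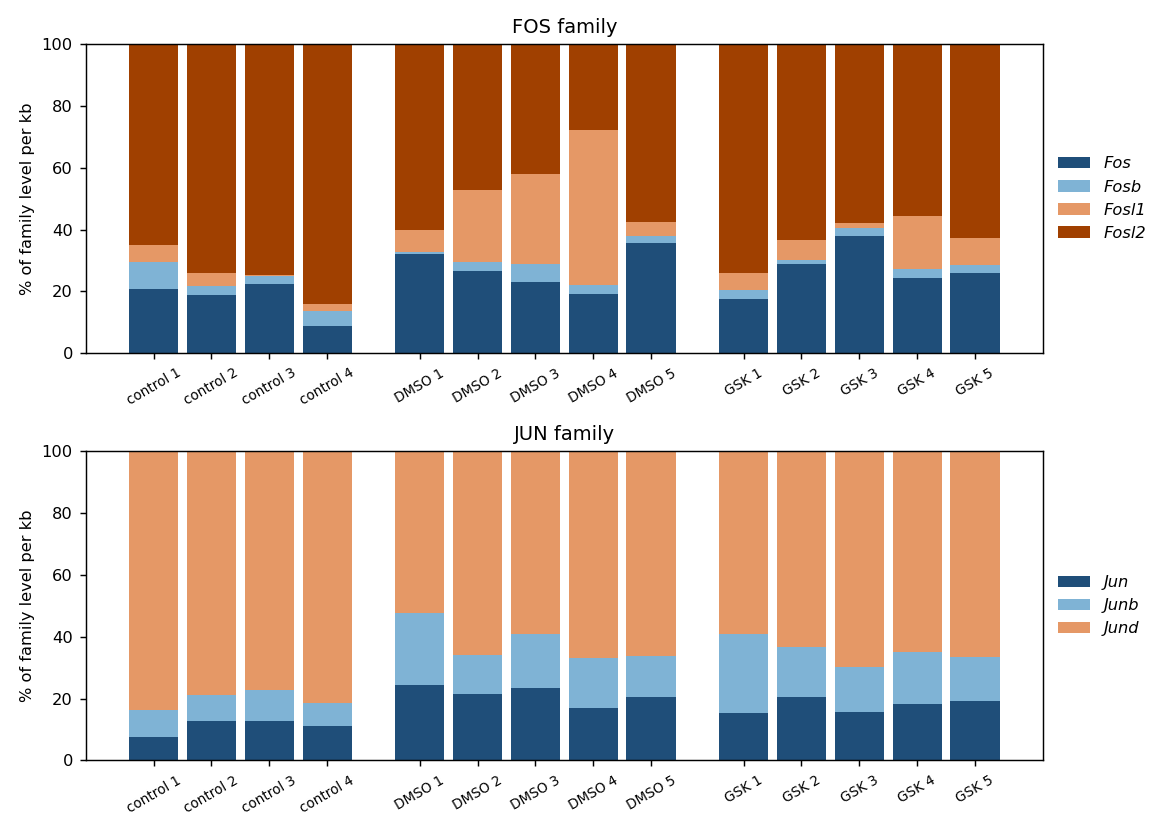
Share of each gene in the summed level per kilobase of the FOS family (top) and of the JUN family (bottom), in percent, with 1 bar per library. The Jund share is 77.2% or more in every control and at most 69.9% in every i-TERTci library, and Fosl1 reaches 50.1% of the FOS family in DMSO replicate 4.

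Mice within a treatment group differed together. DMSO replicate 1 had the highest level in its group for 7 members and DMSO replicate 5 the lowest for 9. In the GSK2830371 group replicate 1 was highest for 6 members and replicate 3 lowest for 6. Correlations of log2 values were computed over the 10 i-TERTci libraries after centring each treatment group on its mean, for all 45 pairs, with exact two-sided permutation p over the 14400 orders within groups and Benjamini-Hochberg adjustment over the 45. Of these pairs, 44 had a positive Pearson r, with a median of 0.75, and 24 passed by Pearson's r, 21 by Spearman's rho and 21 by both. Genes of a library share its size factor and depth. Size factors were 0.827, 1.09, 1.08, 0.946 and 1.21 in the DMSO libraries. They were 0.887, 1.03, 1.01, 1.15 and 1.20 in the GSK2830371 libraries. Replicate 1 thus had the smallest factor of each i-TERTci group and DMSO replicate 5 the largest of its group. The share of all genes with such an order of libraries was not counted, and the part of the size factors in it was not tested. For single members, 0.511% to 9.08% of all genes had an r of 0.75 or more.

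Fos, Fosl2, Jun, Junb, Jund, Atf3 and Egr1 formed a correlated block, in which all 21 pairs passed by both measures. The block was drawn after these same tests were seen. The closest pair was Fosl2 and Junb, with r = 0.953 and rho = 0.95 (exact permutation p = 0.000139 and 0.00125, adjusted p = 0.00208 and 0.00703), and r = 0.863 without DMSO replicate 1 and GSK2830371 replicate 1, the pair of libraries farthest from the median. Fos and Egr1 had r = 0.909 and rho = 0.95 (exact permutation p = 0.000694 and 0.00125, adjusted p = 0.00347 and 0.00703), and r = 0.899 without DMSO replicates 1 and 4. Jund belonged to the block although it did not pass the test against controls: with Jun it had r = 0.918 and rho = 0.85 (exact permutation p = 0.000625 and 0.00931, adjusted p = 0.00347 and 0.0233), and r = 0.918 without GSK2830371 replicate 2 and DMSO replicate 1.

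Fosb, Fosl1 and Ier3 stood outside it. Ier3 passed by Pearson's r with Fos (r = 0.621, rho = 0.75, exact permutation p = 0.0135 and 0.0336, adjusted p = 0.0276 and 0.063, and r = 0.777 without DMSO replicates 1 and 4) and with Jund (r = 0.794, rho = 0.75, exact permutation p = 0.00882 and 0.0336, adjusted p = 0.0198 and 0.063, and r = 0.682 without GSK2830371 replicates 1 and 2). It passed with no member by Spearman's rho. Fosb with Fos had r = 0.106 and rho = 0.1 (exact permutation p = 0.787 and 0.842, adjusted p = 0.824 and 0.842), and r = 0.196 without DMSO replicates 1 and 4. Fosb with Jun was the single negative pair (r = -0.087, rho = -0.15, exact permutation p = 0.813 and 0.735, adjusted p = 0.831 and 0.842). Fosb and Fosl1 had r = 0.706 and rho = 0.75 with each other, which did not pass (exact permutation p = 0.0419 and 0.0336, adjusted p = 0.0754 and 0.063), and r = 0.618 without DMSO replicates 1 and 4. Fosl1 with Atf3 passed by Pearson's r alone (r = 0.753, rho = 0.3, exact permutation p = 0.0255 and 0.462, adjusted p = 0.0478 and 0.63), and r was 0.184 without DMSO replicate 5 and GSK2830371 replicate 3, so that relation rests on these libraries.

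**Figure D4:**
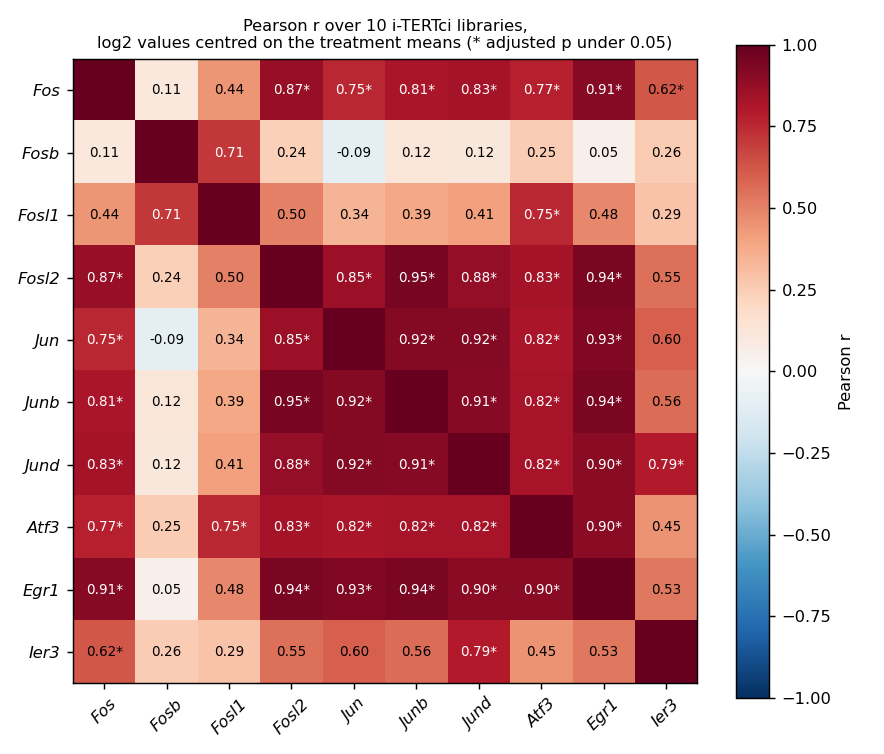
Pearson r of log2 values between each pair of the 10 genes over the 10 i-TERTci libraries, centred on the treatment means, from -1 (blue) to 1 (red), with an asterisk where the adjusted exact permutation p is under 0.05. Fos, Fosl2, Jun, Junb, Jund, Atf3 and Egr1 form a dark red block, while Fosb has no asterisk and Fosl1 has 1.

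The genes most like each member over all 14 libraries, after centring on the group means, were taken from 12315 genes with a mean of at least 100 normalised read counts. Junb was most like Ier2 (r = 0.982), itself an immediate early gene, and Ier2 was also among the 3 genes most like Egr1 (r = 0.95), whose first neighbour was Litaf (r = 0.953). Jund was most like Zpr1 and Ppp1r15a (r = 0.941 for each). Fosl1 was most like Ttbk1 (r = 0.951), Lgals3 (r = 0.892) and Plaur (r = 0.89), the urokinase receptor. The first neighbours of the others were Aimp1 for Fos (r = 0.927), Tbx10 for Fosb (r = 0.892), Chic2 for Fosl2 (r = 0.963), Cnn3 for Jun (r = 0.95), Tmem45a for Atf3 (r = 0.949) and Eif4b for Ier3 (r = 0.916). These are descriptions of the highest values among many and carry no test.

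For the lists that follow, the shares of all genes to read the counts against are 25.2% higher and 23.1% lower in DMSO mice, and 24.3% and 22.1% in GSK2830371 mice. Of 38 other immediate early genes listed, 37 were tested, and 35 reached the filter's level in both the control and the DMSO group. In DMSO mice 17 rose and 4 fell, with a median change of 0.66, and in GSK2830371 mice 12 rose and 5 fell, with a median of 0.24. The orphan nuclear receptors Nr4a3 (2.18, limma adjusted p = 9.54e-06) and Nr4a1 (1.77, limma adjusted p = 0.000119) had the smallest p among those that rose in DMSO mice. Klf2, a flow-responsive factor of endothelium, fell by 1.43 (limma adjusted p = 4.41e-05), and the salt-inducible kinase Sik1 fell by 0.93 (limma adjusted p = 0.000668). Nr4a3 also led in the GSK2830371 group, at 2.57 (limma adjusted p = 2.29e-06).

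Against DMSO, none of the 37 passed in GSK2830371 mice, and 26 had estimates below 0 (51.1% of all genes). At an unadjusted p under 0.05, 8 were lower, against 1.97% of all genes. Named after their values were seen, these were Egr2, Egr3, Ier5l, Myc, Arc, Plk3, Nfkbiz and Phlda1. Klf2 alone was higher at that level. Plk3, a stress-response kinase, had the smallest p, with a change of -1.10 (SE 0.27, limma unadjusted p = 0.000905, adjusted p = 0.994) and means of 1398 against 3093. Every GSK2830371 library was below every DMSO library for Plk3 and Egr3, against 0.245% of all genes.

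Among the 11 other leucine zipper partners of AP-1, 3 rose and 2 fell in DMSO mice, shares near those of all genes (25.2% and 23.1%). Of the small MAF proteins, which lack an activation domain, Maff rose by 3.44 (limma adjusted p = 0.000292) and Mafk rose by 1.63 (limma adjusted p = 0.00089), while Mafg was at 0.23 (limma adjusted p = 0.278). Maf fell by 1.45 (limma adjusted p = 6.85e-05) and Batf2 fell by 1.20 (limma adjusted p = 0.00686). In GSK2830371 mice 3 rose and 2 fell, with Mafk again at 1.64 (limma adjusted p = 0.000972). Against DMSO none passed, and Batf3 had the smallest p (-0.77, limma adjusted p = 0.994).

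Of 26 kinases and factors upstream of AP-1, 8 rose and 7 fell in DMSO mice (median 0.12), and 7 rose and 7 fell in GSK2830371 mice (median 0.05), shares near those of all genes. The stress kinase Map3k5 (0.96, limma adjusted p = 0.000163) and the SRF partner Elk4 (1.04, limma adjusted p = 0.00164) rose in DMSO mice. The SRF coactivator Mrtfa fell by 1.12 (limma adjusted p = 0.000163) and Mapk3, which encodes ERK1, fell by 1.03 (limma adjusted p = 0.000407). Map3k5 led in GSK2830371 mice as well (1.03, limma adjusted p = 9.83e-05). Against DMSO none passed, and Mapk14 had the smallest p (0.24, limma adjusted p = 0.994).

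Of the 16 phosphatases and feedback inhibitors of MAP kinases, 6 rose and 2 fell in DMSO mice (all genes 25.2% and 23.1%), and 4 rose and 2 fell in GSK2830371 mice, where the rises were near the 24.3% of all genes. Dusp8 (2.24, limma adjusted p = 0.000181) and Dusp5 (2.19, limma adjusted p = 0.000977), which dephosphorylate JNK and ERK respectively, rose in DMSO mice. Dusp9 fell by 2.34 (limma adjusted p = 0.00126) and Dusp7 fell by 1.12 (limma adjusted p = 0.021). Dusp8 rose by 1.65 in GSK2830371 mice (limma adjusted p = 0.00199). Dusp5 had the smallest p against DMSO, at -1.30 (limma unadjusted p = 0.00715, adjusted p = 0.994), and none of the 16 passed.

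Of 22 genes known as targets of AP-1, 19 were tested and 14 reached the filter's level in both the control and the DMSO group, with Mmp10, Ereg and Il6 too low. In DMSO mice 13 rose and 2 fell (median 1.99), beside 25.2% and 23.1% of all genes. In GSK2830371 mice 8 rose and 4 fell (median 1.11), beside 24.3% and 22.1%, and 13 of the 19 reached the filter's level in both the control and the GSK2830371 group. A gene short of that level in 1 group could enter the test through the others. Areg, at a mean of 0.70 in controls, did so through the i-TERTci groups. Timp1, an inhibitor of matrix proteases, rose by 5.39 in DMSO mice (limma adjusted p = 2.97e-05) and by 5.06 in GSK2830371 mice (limma adjusted p = 5.56e-05). Spp1, which encodes osteopontin, rose by 3.27 in DMSO mice (limma adjusted p = 8.99e-05). Vegfa fell by 0.76 (limma adjusted p = 0.00953) and Tgfb1 fell by 0.60 (limma adjusted p = 0.0283). Against DMSO none of the 19 passed, with Mmp13 at the smallest p (-1.95, limma unadjusted p = 0.00763, adjusted p = 0.994).

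Markers of kidney and blood cell types were counted in the same comparisons, to be read against the same shares of all genes (25.2% higher and 23.1% lower in DMSO mice, 24.3% and 22.1% in GSK2830371 mice). Of 12 neutrophil markers, 11 rose in each i-TERTci group. Their summed level was 160 to 262 in controls, 1062 to 31607 in DMSO mice and 565 to 22979 in GSK2830371 mice, with Mpo at 0 in every control, and 2 of the 12 reached the filter's level in both the control and the i-TERTci group. Of 12 macrophage markers, 6 rose and 1 fell in DMSO mice and 6 rose in GSK2830371 mice. Their sums were 9442 to 14314, 14445 to 94802 and 15556 to 48898, and in DMSO mice Cd14 had the highest level of them, 78726 in 1 library. None of 8 T cell markers rose, 3 fell in DMSO mice and 2 fell in GSK2830371 mice, with sums of 471 to 1309, 140 to 866 and 159 to 334. The 2 falls were near the share of all genes. In each comparison with controls, 4 of the 8 reached the filter's level in both groups.

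Some counts of the remaining lists, such as the endothelial rises and the podocyte falls, were near those shares of 22.1% to 25.2%. Of 8 endothelial markers 1 rose and 4 fell in DMSO mice and 2 rose and 4 fell in GSK2830371 mice, with sums of 37535 to 50348, 27392 to 40135 and 34552 to 42186. Fibroblast and mural markers had 0 calls of 8 in DMSO mice and 1 rise in GSK2830371 mice (sums 15362 to 38473, 19352 to 99039 and 20863 to 78561). Of 10 proximal tubule markers 8 fell in each i-TERTci group, and their sums of 648053 to 1147950 in controls did not overlap the 131238 to 357989 of DMSO mice and the 109312 to 405612 of GSK2830371 mice. Of 9 distal nephron and collecting duct markers 5 fell in each group (sums 224650 to 355034, 260452 to 784361 and 240487 to 456335). Umod had the highest level of these 9 and weighed most in their sums, at 114282 to 217768, 153787 to 652448 and 150883 to 360818. Of 8 podocyte markers 2 fell in each group (sums 30885 to 43759, 25515 to 47979 and 24642 to 52214). The part of these cell types in the changes of the members was not tested.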

How the data were processed

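Whole kidneys of 14 mice were sequenced and the libraries were grouped by genotype and injection as labelled. The deposited tables, named raw counts, hold signal per gene: from the values themselves, the authors had divided whole reads by a size factor for each library. The submitters' processing notes name FastQC, Trimmomatic, STAR, DESeq2 and mm10; no source used here gives the counter, annotation or strand setting. All values (100.0%) were whole multiples of a column's step within 0.001, and control reads agreed in both tables (0 mismatches over 23682 shared genes), so reads were recovered. The design had allowed for raw counts or for such values and named limma for the latter.

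Size factors by the median of ratios were computed over all 14 libraries and applied to the reads. The 18810 genes passing filterByExpr (minimum count 10, a CPM of 0.205) entered 1 limma 3.58.1 fit by group on log2(value + 1), with trend and robust moderation, two-sided tests and Benjamini-Hochberg adjustment at 0.05. R 4.3.3 was used, with Python 3.11.15, scipy 1.17.1 and matplotlib 3.10.9. The scripts were tested on simulated data. Nothing says that the libraries are from separate cages or litters, so p-values measure the spread between these mice. Depth was 47.2 to 64.6 M reads in genes per library.

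The members and the lists were chosen with earlier results of these data known. All members are named; from each of the 5 pathway lists, the pair of genes with the smallest p in each direction in DMSO against control and the gene with the smallest p in each other comparison. Genes of the other immediate early list at an unadjusted p under 0.05 against DMSO, and Gm11175, Ccdc85b and mt-Nd6, were named after their values were seen. Same-numbered libraries are not said to be paired. Alternatives were TMM and nuclear-read scaling, edgeR 4.0.16, DESeq2 1.42.0, voom, no filter, pseudocounts of 0.5 and 5, fits of 2 groups, the deposited values, a replicate block, sex (Xist) as covariate, Xist-positive libraries, 31 days or fewer, and leaving out each library.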

Additional observations from a re-analysis of the deposited data

Results flagged for a closer look

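Of 30 sets of values (10 genes in 3 groups), 2 held a library whose gap to its nearest neighbour was large against the range of its group, and chance alone gives about 1 in 20 groups. Fosl1 in DMSO replicate 4 was at 1952, with the next DMSO library at 362. Atf3 in control replicate 4 was at 47.1, with the other controls between 93.5 and 103. Without DMSO replicate 4 the change of Fosl1 against controls was 4.48 in place of 5.22 and passed the limma test (adjusted p = 0.00119). Atf3 passed against controls in every refit that left out 1 library.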

How the results depend on the processing

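In the DMSO comparison, the calls and directions of the 10 genes were unchanged in 264 of 280 refits, 13 lost a call and 3 turned direction. In the GSK2830371 comparison 260 of 280 were unchanged, 9 lost and 4 gained a call and 7 turned. In GSK2830371 against DMSO no refit gave a member a call, and 30 of 270 turned direction. These counts include refits without a library of the group outside the comparison, which keep the estimate and change only the shared spread. With Xist-positive libraries only, 5 members changed in DMSO against control, and 2 of all genes changed in GSK2830371 against DMSO, where DESeq2 gave 1. With the replicate block, 9589, 9248 and 0 genes and 8, 7 and 0 members changed in the 3 comparisons. Over 13 same-numbered pairs of libraries the deviations correlated at r = -0.06 to 0.34, with 4 over 0.1. These values alone cannot show whether the numbers pair mice. Directions turned as follows, and the cause was not tested. Jund against controls was -0.098 in DMSO mice with the Xist covariate and -0.097 with Xist-positive libraries, and -0.044 and -0.045 in GSK2830371 mice. Ier3 was 0.0039 in GSK2830371 mice at 31 days or fewer. Against DMSO, Junb was 0.063 with edgeR, 0.064 with DESeq2, 0.16 with the covariate, 0.34 with Xist-positive libraries and 0.50 at 31 days or fewer. Jund was 0.025, 0.026, 0.054, 0.052 and 0.32 in the same order. Fos was 0.080 and Egr1 0.155 with Xist-positive libraries, and Fosb was 0.73 and Egr1 0.12 at 31 days or fewer. Leaving out each library in turn gave ranges that cross 0 for Ier3 (-0.025 to 0.29) in DMSO mice and for Jund (-0.078 to 0.28) and Ier3 (-0.25 to 0.063) in GSK2830371 mice against controls. Against DMSO such ranges were -0.74 to 0.013 for Fosb, -0.22 to 0.34 for Fosl2, -0.39 to 0.30 for Junb and -0.21 to 0.15 for Jund. Fosl1 has few reads in controls (12, 11, 1 and 5), so its change moved with the pseudocount, from 5.37 at 0.5 to 4.51 at 5.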
